A study of Mus musculus with 4 samples.

Results

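The genes described here encode the enzymes that decide the fate of mitochondrial pyruvate in fat tissue: subunits of the pyruvate dehydrogenase complex, the kinases that switch it off, and pyruvate carboxylase. Members were the probe sets whose only gene symbol in the array's annotation was Pdha1, Pdhb, Pdhx, Dlat, Dld, Pdk1, Pdk2, Pdk4 or Pcx. Of these 9 genes, 7 had such a probe set, with 9 probe sets in all among the 12422 against transcripts and 8251 named genes. Pdhx, the protein that binds E3 into the complex, and the kinase gene Pdk2 had none and were not analysed here. Each of the 9 probe sets was above the floor of 174 intensity units on all 4 arrays.

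The 4 arrays held pooled RNA from epididymal white fat of male C57BL/6 mice aged 3 to 4 months. One array came from control mice, and the others from mice that had received CL 316243 at 3 nmol/hr for 1, 3 or 6 days; this compound selectively activates β3-adrenergic receptors, which fat cells carry. The sources used here do not give how many mice made up a pool, how the compound was administered, or what the control mice received. With 1 array per group there is no spread between replicates, so no test was run, no p-value is given, and the differences have no replicate check. In whole fat, fewer cells of a type and less RNA per cell cannot be told apart.

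Pyruvate enters the citric acid cycle by either of a pair of routes. The pyruvate dehydrogenase complex turns it irreversibly into acetyl-CoA: the E1 enzyme (Pdha1 and Pdhb) removes carbon dioxide, E2 (Dlat) passes the acetyl group to coenzyme A on a lipoyl arm, and E3 (Dld) reoxidizes that arm. Pyruvate dehydrogenase kinases phosphorylate E1 alpha and stop the complex, which spares glucose when fatty acids are burned. Pyruvate carboxylase, a biotin enzyme, makes oxaloacetate instead, which in fat cells feeds citrate export for fatty acid synthesis and glycerol formation.

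The 250 bases before the annotated start of 5 of these genes are shown because they are the genes that passed 2-fold (Pdk4, Dlat and Pcx) and the pair of E1 genes whose levels moved together (Pdha1 and Pdhb). The sequences are from RefSeq, build GRCm38.p6, written 5′ to 3′ along the gene, with matches to CCAAT on either strand in capitals. For Pcx, which has several annotated starts, the window of the start at the lower coordinate is printed.
Pdk4, chr6:5496279-5496528, minus strand: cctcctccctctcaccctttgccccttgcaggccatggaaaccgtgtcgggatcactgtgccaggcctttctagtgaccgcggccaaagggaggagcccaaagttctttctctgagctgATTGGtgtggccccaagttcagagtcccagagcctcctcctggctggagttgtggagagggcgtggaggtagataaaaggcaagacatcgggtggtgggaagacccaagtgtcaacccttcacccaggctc
Dlat, chr9:50659781-50660030, minus strand: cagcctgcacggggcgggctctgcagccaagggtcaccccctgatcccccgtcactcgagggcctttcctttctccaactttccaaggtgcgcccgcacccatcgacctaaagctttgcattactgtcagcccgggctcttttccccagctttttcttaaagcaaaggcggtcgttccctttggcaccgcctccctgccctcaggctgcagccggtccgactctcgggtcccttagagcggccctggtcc
Pcx, chr19:4510222-4510471, plus strand: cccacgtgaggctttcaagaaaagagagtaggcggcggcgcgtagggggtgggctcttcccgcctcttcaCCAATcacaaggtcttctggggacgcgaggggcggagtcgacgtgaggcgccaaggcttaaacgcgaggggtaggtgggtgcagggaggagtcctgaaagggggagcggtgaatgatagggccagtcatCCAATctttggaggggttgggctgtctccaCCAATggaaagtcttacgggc
Pdha1, chrX:160138431-160138680, minus strand: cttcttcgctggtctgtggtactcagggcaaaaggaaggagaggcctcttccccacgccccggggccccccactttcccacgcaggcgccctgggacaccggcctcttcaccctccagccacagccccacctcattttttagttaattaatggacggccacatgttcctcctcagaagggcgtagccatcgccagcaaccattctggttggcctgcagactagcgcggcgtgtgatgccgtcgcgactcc
Pdhb, chr14:8172993-8173242, minus strand: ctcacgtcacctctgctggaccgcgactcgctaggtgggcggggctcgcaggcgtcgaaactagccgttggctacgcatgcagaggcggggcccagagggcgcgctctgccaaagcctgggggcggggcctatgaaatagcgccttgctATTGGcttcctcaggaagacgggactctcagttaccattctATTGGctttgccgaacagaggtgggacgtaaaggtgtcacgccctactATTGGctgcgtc
CCAAT, the box bound by the NF-Y complex, occurred 3 times before Pdhb and 3 times before this Pcx start, once before Pdk4, and in neither the Pdha1 nor the Dlat window. Among 32851 windows of the same length before annotated mouse gene starts, 33.8% held at least 1 CCAAT and 2.79% held at least 3. The matches began 101, 60 and 12 bases before the Pdhb start, 180, 51 and 21 bases before the Pcx start and 131 bases before the Pdk4 start.

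A further 7 motifs were searched on both strands in the 9 windows of the 7 genes. The GC box, GGGCGG, was found in 4 windows, against 32.7% of all windows. The core of the cAMP response element, TGACG, was found in the Dlat and Pdhb windows, against 17.8% of all windows. The E-box, CACGTG, was found in the printed Pcx window, against 6.02%. The other Pcx window held no match to any motif searched, CCAAT included. The core of nuclear receptor sites (AGGTCA) was in 0 of the 9 windows, against 14% of all. The forkhead site (GTAAACA) was in 0, against 3.17%. The AP-1 site (TGANTCA) was in 0, against 6.75%, and so was the TATA box (TATAAA), against 12.4%. No match overlapped a match of another motif. The search covered only the 250 bases before each start.

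Along the course the kinase gene Pdk4 was high on every treated array, the E1 genes and Pdk1 were low at day 1 alone, Dlat was high from day 3, and Pcx was lowest at day 1 and back near control at day 6. At day 1, 1 of the 7 genes was at least 2-fold higher than control (Pdk4) and 1 at least 2-fold lower (Pcx). Among all 6254 genes above the floor, 7.5% were higher and 8.36% lower than control by at least 2-fold on that array. At day 3, 2 of 7 were at least 2-fold higher (Pdk4 and Dlat) and 0 lower, with a background of 3.81% higher and 3.26% lower. At day 6, 1 of 7 was at least 2-fold higher (Pdk4) and 0 lower, with a background of 1.73% higher and 1.63% lower. At 1.5-fold in either direction, 5 of the 7 passed at day 1, 3 at day 3 and 2 at day 6, where 34.3%, 20.5% and 15.8% of all genes did. With 7 genes a single call is a large share of the list, so nothing particular to these genes is read from the counts. The median log2 change of the 7 genes was -0.67 at day 1, 0.22 at day 3 and 0.39 at day 6, where that of the 6254 genes was -0.02, 0 and 0.

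**Figure D1:**
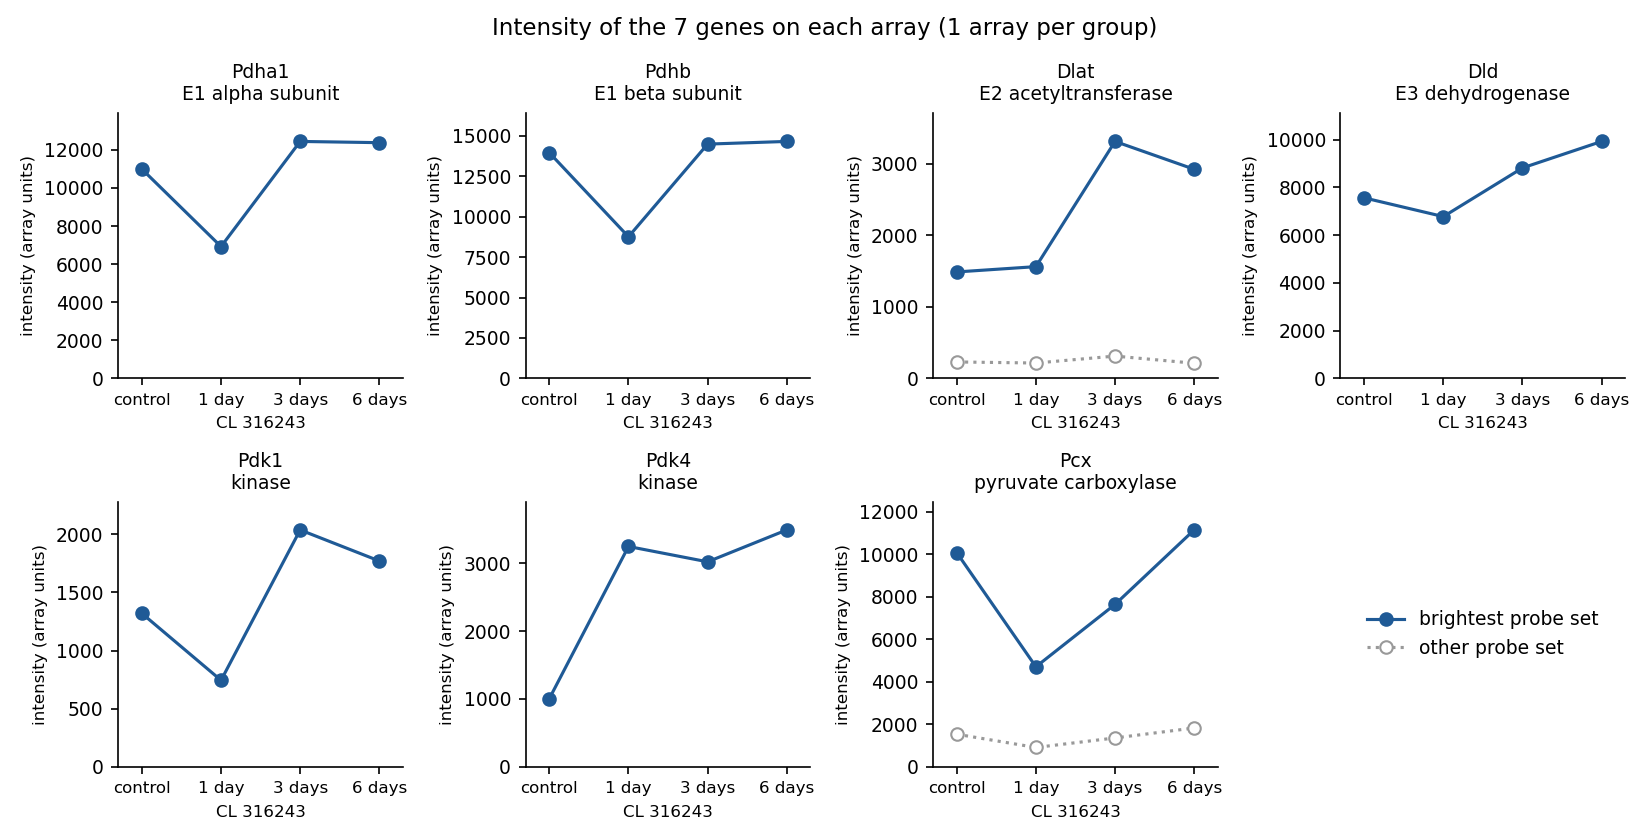
Intensity of each of the 7 genes on the control, 1-day, 3-day and 6-day arrays, in linear array units from 0; filled points are the brightest probe set and open points the other one, where there is one. Pdk4 stands at 3022 to 3492 on the treated arrays and at 1006 on the control array, whereas Pdha1, Pdhb, Pdk1 and Pcx have their lowest value at day 1.

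The kinase genes took different courses. Pdk4, the isoform induced by fasting and fatty acids in many tissues, was at 1006 intensity units on the control array, 3248 at day 1, 3022 at day 3 and 3492 at day 6. All 3 treated values lay close together and well above control. The log2 change against control was 1.69 at day 1 (3.23-fold), 1.59 at day 3 (3.00-fold) and 1.80 at day 6 (3.47-fold). These changes were 5.08, 5.86 and 7.30 times the error estimated from pairs of probe sets of one gene, which was 0.33, 0.27 and 0.25 on the log2 scale on these days. That error holds no variation among animals or among pools.

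Pdk4 kept its size of change while fewer genes differed from control by 2-fold on the later arrays. Among the 6254 genes, ordered from the highest log2 change down, Pdk4 was at rank 195 at day 1, rank 83 at day 3 and rank 13 at day 6. The step from day 1 to day 3 was -0.10 on the log2 scale and that from day 3 to day 6 was 0.21, each smaller than the error of 0.31 and 0.26 for these steps. Skeletal muscle also holds much Pdk4. Of 10 muscle markers on the arrays, 6 were at or below the floor on the control array, 8 at day 1, 6 at day 3 and 8 at day 6. The 10 summed to 2326 intensity units on the control array and to 3171, 1175 and 1194 at days 1, 3 and 6. Creatine kinase (Ckm) and myoglobin (Mb) were at or below the floor on every array. Muscle actin (Acta1) was at 1492 on the control array, 2377 at day 1, 212 at day 3 and 168 at day 6. By its brightest probe set the myosin light chain Mylpf was above the floor on the 4 arrays, at 199, 212, 213 and 270. That probe set was highest at day 6, as Pdk4 was. The other Mylpf probe set was below the floor on every array, at -42, -27, -53 and -23. The myosin heavy chain Myh4 was at 343 on the control array, 108 at day 1, 383 at day 3 and 373 at day 6 by its brightest probe set. The other Myh4 probe set was below the floor on every array, at 42, 104, 18 and 41. The part of muscle in the Pdk4 values was not tested.

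Pdk1, the isoform known as a target of hypoxia-inducible factor, took another course. It stood at 1319 on the control array, 744 at day 1, 2037 at day 3 and 1770 at day 6. It was thus lowest at day 1 and above control afterwards. Its log2 change against control was -0.83 at day 1, 0.63 at day 3 and 0.42 at day 6, which is 1.77-fold lower, 1.54-fold higher and 1.34-fold higher. Each lay between 1.72 and 2.48 errors from 0 and within 2-fold. Hif1a, which encodes that factor's regulated subunit, was at 6924, 17479, 6723 and 5921 on the same arrays. The Hif1a transcript was thus 2.52-fold higher at day 1, when Pdk1 was lowest. The protein was not measured, and the part of that factor in the Pdk1 values was not tested.

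Pdk3, a further kinase isoform that was not among the members, stood at 1327, 966, 898 and 791 on the control, 1-day, 3-day and 6-day arrays, with log2 changes of -0.46, -0.56 and -0.75. Pdk4 was thus the only one of the 3 measured kinase genes that was above control on all treated arrays. On the same arrays the change of Pdk4 exceeded that of Pdk1 by 2.52, 0.96 and 1.37 on the log2 scale at days 1, 3 and 6, and that of Pdk3 by 2.15, 2.15 and 2.54. These are differences between changes, since the level of one probe set cannot be set against that of another.

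**Figure D2:**
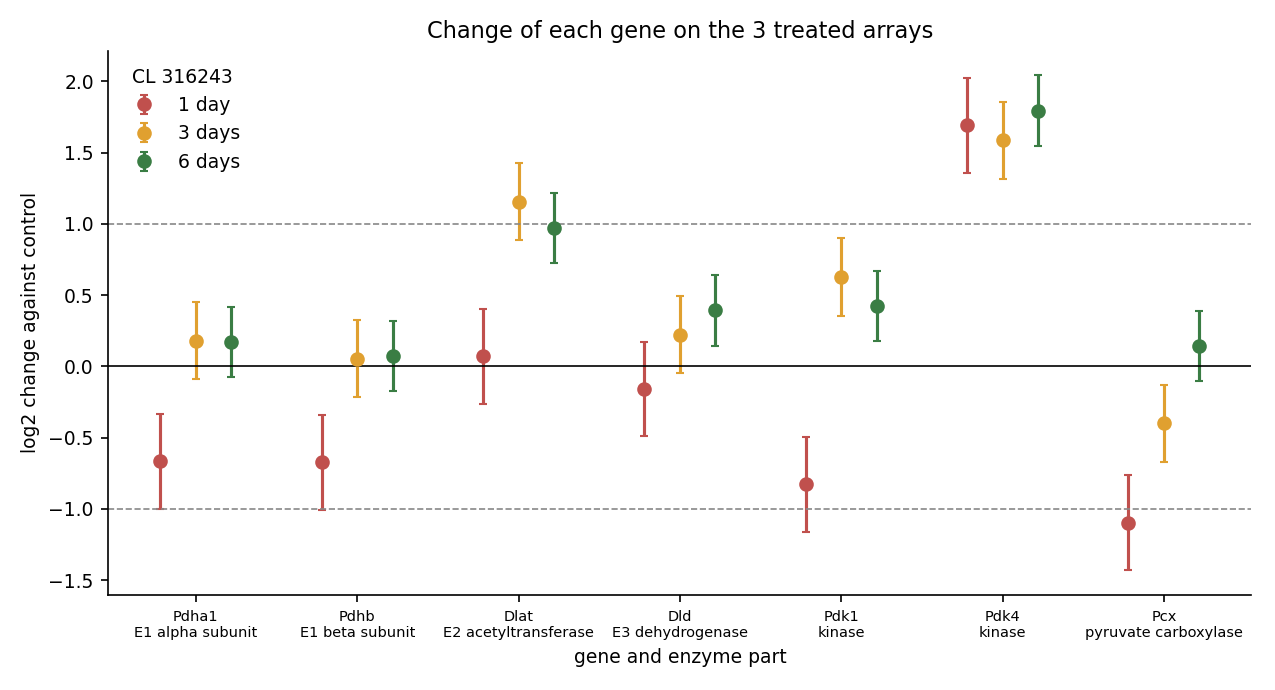
Log2 change of each of the 7 genes against control after 1, 3 and 6 days of CL 316243, by the brightest probe set; bars are 1 error between probe sets of one gene and dashed lines mark 2-fold. Pdk4 lies between 1.59 and 1.80 on all 3 days, Dlat reaches 1.15 at day 3, and Pcx is at -1.10 at day 1.

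The genes of the complex itself did not share one course. Pdha1, the E1 alpha subunit that the kinases phosphorylate, was at 10989 on the control array, 6922 at day 1, 12444 at day 3 and 12379 at day 6. Pdhb, its E1 beta partner in the same heterotetramer, was at 13960, 8759, 14493 and 14659. Both were low at day 1 alone. The log2 change at day 1 was -0.67 for each, or 1.59-fold lower, about the size of 2 errors. At day 3 the changes were 0.18 for Pdha1 and 0.05 for Pdhb, and at day 6 they were 0.17 and 0.07, all within 1 error. The change of Pdhb differed from that of Pdha1 by -0.01, -0.13 and -0.10 on the log2 scale at days 1, 3 and 6.

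Dlat, the E2 acetyltransferase that forms the core of the complex, was at 1487 on the control array, 1561 at day 1, 3311 at day 3 and 2922 at day 6 by its brightest probe set. Control and day 1 were alike, and days 3 and 6 were both higher. Its log2 change was 0.07 at day 1, 1.15 at day 3 (2.23-fold) and 0.97 at day 6 (1.96-fold, just short of 2-fold). Dlat was at rank 180 from the top of 6254 genes at day 3 and at rank 121 at day 6. The gene's dimmer probe set read 229, 214, 311 and 211, with log2 changes of -0.10, 0.44 and -0.12, and lay near the floor, its lowest value being 1.22 times the floor. The mean of both probe sets gave 0.80 at day 3 and 0.43 at day 6, so the 2-fold call at day 3 rests on the brighter one.

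Dld, the E3 dehydrogenase that the complex shares with the 2-oxoglutarate and branched-chain dehydrogenases and the glycine cleavage system, was the steadiest of the 4 subunit genes. It read 7563 on the control array, 6778 at day 1, 8818 at day 3 and 9928 at day 6. The log2 changes were -0.16, 0.22 and 0.39, and its 4 values spanned 1.46-fold, against 2.23-fold for Dlat. Over the 4 subunit genes the median log2 change was -0.41 at day 1, 0.20 at day 3 and 0.28 at day 6. The change of Dlat exceeded that of Pdha1 by 0.74, 0.98 and 0.80 on the log2 scale at days 1, 3 and 6.

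Set against its target, the kinase moved the other way at day 1. The log2 change of Pdk4 exceeded that of Pdha1 by 2.36 at day 1, 1.41 at day 3 and 1.62 at day 6, so that the signal of Pdk4 relative to that of Pdha1 was 5.13-fold, 2.65-fold and 3.08-fold that on the control array. At day 1 both sides contributed, with Pdk4 above and Pdha1 below control, and at days 3 and 6 Pdha1 was within 1 error of control. These are transcript signals, and phosphorylation of E1 alpha was not measured.

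**Figure D3:**
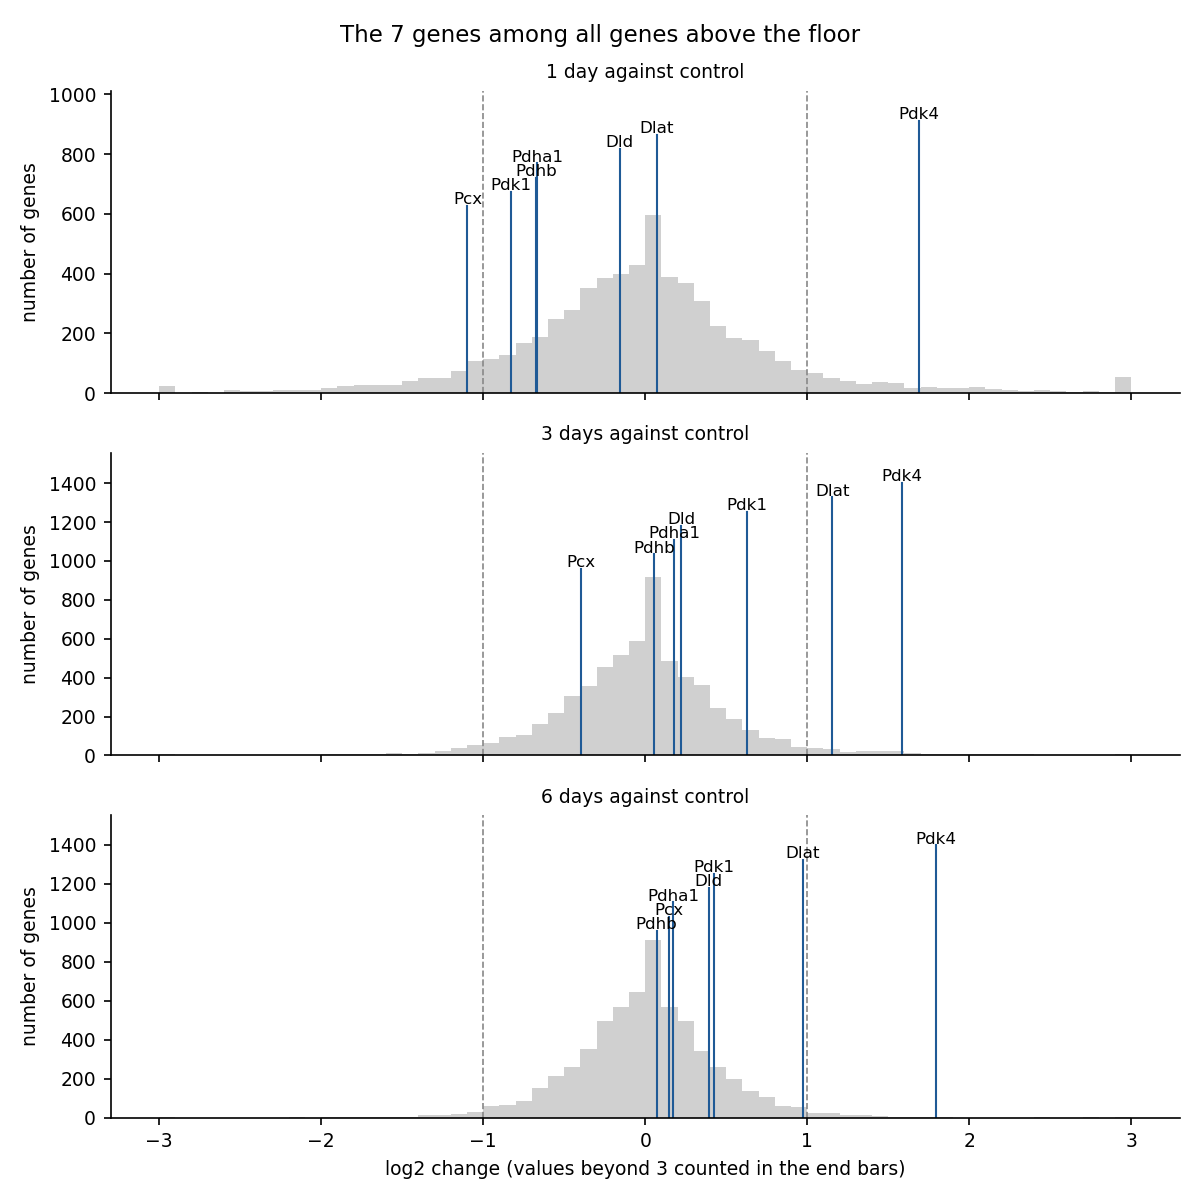
Number of genes, of the 6254 above the floor on at least 1 array, by log2 change against control at 1, 3 and 6 days (grey bars, 0.1 wide). The 7 genes are marked by lines whose heights only separate the names, and dashed lines mark 2-fold. Pdk4 stays between 1.59 and 1.80 while the bulk narrows around 0, and Pcx moves from the lower side at day 1 (-1.10) to 0.15 at day 6.

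Pcx, pyruvate carboxylase, was at 10072 on the control array, 4707 at day 1, 7641 at day 3 and 11144 at day 6. It was lowest at day 1, in between at day 3 and slightly above control at day 6. The log2 change was -1.10 at day 1 (2.14-fold lower), -0.40 at day 3 and 0.15 at day 6, or -3.30, -1.47 and 0.59 errors. At day 1 it was at rank 421 from the bottom of 6254 genes. The other probe set of Pcx read 1534, 911, 1359 and 1827 and gave log2 changes of -0.75, -0.18 and 0.25, the same directions but within 2-fold. Both Pcx probe sets carry a suffix that marks probes shared with other transcripts, so other sequences may add to their signal. A further 4 control probe sets of the array named for Pcx were left out by the rule.

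Between the treated arrays, 2 of the 7 genes passed 2-fold upward at day 3 relative to day 1 and 0 downward, where 5.84% and 6.28% of the 6254 genes did. Those 2 were Pdk1, at 2037 against 744 (2.74-fold), and Dlat, at 3311 against 1561 (2.12-fold). In the same step Pdha1 was 1.80-fold and Pcx 1.62-fold higher, and the change of Pdhb was 0.73 on the log2 scale. Between day 6 and day 3, 0 of 7 passed 2-fold in either direction, with 1.5% of genes higher and 2.65% lower. The largest step there was that of Pcx, which was 1.46-fold higher at day 6.

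Cell type markers moved on the same arrays. Fat cell markers, with 10 of 12 on the arrays and all 10 above the floor on every array, summed to 223387 intensity units on the control array and to 133844, 201021 and 237512 at days 1, 3 and 6. The 4 arrays stand in the same order for Pcx, and Pdha1 and Pdhb share the low point at day 1. At that time 4 of the 10 were at least 2-fold lower, among them adiponectin (Adipoq) at 25354 against 52054. The 13 macrophage markers summed to 30391, 89512, 75896 and 35389 along the course, and the 10 neutrophil markers to 2378, 89457, 4014 and 2208. The part of cell makeup in the day 1 values of Pcx, Pdha1, Pdhb and Pdk1 was not tested.

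Brown fat markers, 7 of 7 on the arrays, summed to 1671 on the control array and to 5359, 14452 and 19172 at days 1, 3 and 6. Of the 6 above the floor on at least 1 array, 2 were at least 2-fold higher than control at day 1, 5 at day 3 and 5 at day 6, with median log2 changes of 0.59, 2.39 and 2.14. The uncoupling protein Ucp1, which makes brown fat give off heat, was below the floor on the control array and at 3054, 1502 and 1190 on the treated ones, at least 17.6-fold, 8.65-fold and 6.85-fold higher. The respiratory chain subunit Cox8b was at 1002 on the control array, 815 at day 1, 9554 at day 3 and 15477 at day 6. Cidea was at 266, 178, 1313 and 947 along the course, so Cidea and Cox8b were below control at day 1. The summed markers were above control on every day, as Pdk4 was. They were higher at days 3 and 6 than at day 1, as the brighter Dlat probe set was. The sums rest largely on single genes, Ucp1 at day 1 and Cox8b at days 3 and 6, and the markers did not share one course. The part of brown fat cells in the Pdk4 and Dlat values was not tested.

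Epididymis and testis markers, with 7 of 9 on the arrays, summed to 7614 on the control array, 1847 at day 1, 1820 at day 3 and 12363 at day 6. The epididymal lipocalin Lcn5 was at 3322, 63, 7 and 8031, and the epididymal Adam7 at 2655, 200, 251 and 1847. Both were thus high on the control and 6-day arrays and low on the others, and Pcx was also higher on those arrays than on the 1-day and 3-day ones. Of the genes for proteins that package sperm DNA, Tnp1 was above the floor on the 4 arrays by its brightest probe set. That probe set read 1258, 1277, 1235 and 1710. The other Tnp1 probe set was below the floor on every array, at -37, -30, -5 and -44. Tnp2 was above the floor at day 1, at 188, and day 6, at 264, and Prm1 at day 6, at 307. Prm2 was at or below the floor on every array. The part of this tissue in the Pcx, Pdk4 and Dlat values was not tested.

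**Figure D4:**
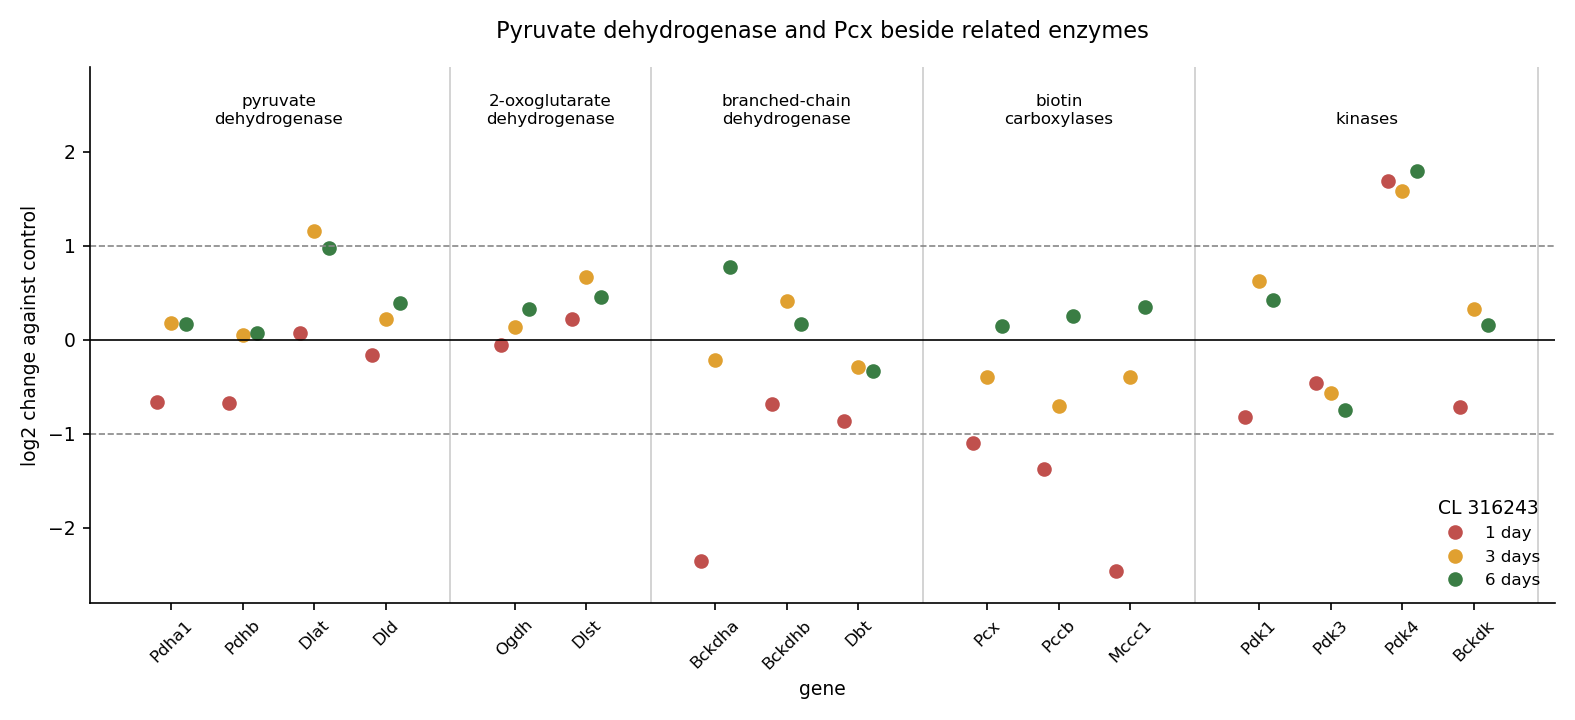
Log2 change against control after 1, 3 and 6 days for the subunits of pyruvate dehydrogenase, the 2 sister complexes, 3 biotin carboxylases and 4 mitochondrial kinases; dashed lines mark 2-fold. At day 1 Bckdha (-2.36), Mccc1 (-2.46), Pccb (-1.37) and Pcx (-1.10) lie below the lower line, and Pdk4 (1.69) is the only gene above the upper one.

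The sister complexes use the same chemistry on other substrates. Ogdh, E1 of the 2-oxoglutarate complex, had log2 changes of -0.06, 0.14 and 0.33, and Dlst, its E2, 0.23, 0.67 and 0.46, at days 1, 3 and 6. Bckdha, E1 alpha of the branched-chain complex, was at 3519 on the control array and 686 at day 1, with 3029 and 6035 later, and so was 5.13-fold lower at day 1. Bckdhb (E1 beta) and Dbt (E2) of that complex changed by -0.68 and -0.86 at day 1, and its kinase gene Bckdk by -0.71. In all, 1 of the 8 genes of these complexes and the glycine cleavage system above the floor was at least 2-fold lower at day 1 and 0 were past 2-fold at days 3 and 6. Among all 6254 genes, 8.36%, 3.26% and 1.63% were at least 2-fold lower at days 1, 3 and 6. The shares at least 2-fold higher were 7.5%, 3.81% and 1.73%. The same shares are the background for every list count given here, cell markers included.

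At day 3 the E2 genes differed: Dlat was at 1.15, Dlst at 0.67 and Dbt at -0.29. The change of Dlat exceeded that of Dlst by 0.48 and that of Dbt by 1.44 on the log2 scale at day 3, and by 0.52 and 1.30 at day 6. Lias, the enzyme that makes the lipoyl arm which all E2 enzymes carry, was the only lipoate gene of its list on the arrays and changed by -0.66, 0.08 and 0.31, a course close to that of Pdha1.

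The other biotin carboxylases on the arrays were also low at day 1. Pccb, a subunit of propionyl-CoA carboxylase, read 3263, 1262, 2001 and 3888 along the course and was 2.59-fold lower at day 1. Mccc1, a subunit of the methylcrotonyl-CoA carboxylase of leucine breakdown, read 5111, 927, 3877 and 6526 and was 5.51-fold lower. Pcx, Pccb and Mccc1 were each lowest at day 1, below control at day 3 and above it at day 6. Slc5a6, a carrier of biotin, lipoate and pantothenate, was instead at least 2-fold higher at days 3 and 6, at 2500 and 2624 against 1031 on the control array. Of the 4 genes of this list above the floor, 2 were at least 2-fold lower at day 1 and 1 at least 2-fold higher on each later day.

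Among genes that bring or use pyruvate, 10 of 11 on the arrays were above the floor, with 2 at least 2-fold higher and 3 lower at day 1, 0 and 2 at day 3, and 0 and 0 at day 6. Pkm, the pyruvate kinase that forms pyruvate, was at 20878 at day 1 against 9259 on the control array (a log2 change of 1.17) and its other probe set at 6727 against 2944. Slc16a1, a carrier of lactate and pyruvate, was 2.85-fold higher at day 1 and 2.14-fold lower at day 3. Its day 3 value, 175, lay just above the floor of 174. Slc16a7, the high-affinity pyruvate carrier of the same family, was at least 5.77-fold lower at day 1 and 2.18-fold lower at day 3. Me1, the malic enzyme that closes the pyruvate and citrate shuttle, was 2.56-fold lower at day 1 and at 0.04 and 0.16 on the log2 scale later, and Pck2, mitochondrial phosphoenolpyruvate carboxykinase, was at least 2.71-fold lower at day 1.

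Lactate dehydrogenase genes stayed within 2-fold, with Ldha at -0.24, 0.29 and 0.00 and Ldhb at -0.52, 0.04 and -0.08 at days 1, 3 and 6. Pck1, the cytosolic carboxykinase of glycerol formation in fat, had log2 changes of 0.03, 0.26 and 0.86. Mpc1, a subunit of the mitochondrial pyruvate carrier, was at or below the floor on all 4 arrays.

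Downstream, citrate synthase (Cs), which takes both acetyl-CoA and oxaloacetate, was at 10211, 6952, 13399 and 11798, a log2 change of -0.55 at day 1, 0.39 at day 3 and 0.21 at day 6. The order of its arrays matched that of Pdha1. Of 13 citric acid cycle genes above the floor, 1 (Idh2, at -1.10) was at least 2-fold lower at day 1 and 0 passed 2-fold later, with medians of -0.54, 0.39 and 0.52. Of 8 genes of citrate export and fatty acid synthesis, 6 were at least 2-fold lower at day 1, 1 at day 3 and 0 at day 6. They included the citrate carrier Slc25a1 at 2.40-fold and ATP citrate lyase (Acly) at 2.49-fold lower at day 1; at day 6 Slc25a1 was at 0.59 and Acly at -0.86. Fatty acid synthase (Fasn) and Thrsp were 6.39-fold and 15.5-fold lower at day 1, and Scd2 and Elovl6, which desaturate and lengthen fatty acids, 3.52-fold and 3.27-fold.

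Pdk4 is a known target of the PPAR nuclear receptors, and other fatty acid responsive genes were read beside it. Of 12 above the floor, 3 were at least 2-fold higher at day 1, 4 at day 3 and 4 at day 6. Among all 6254 genes, 7.5%, 3.81% and 1.73% were. By the floored values 0 of the 12 were called at least 2-fold lower on these days. Ehhadh, a peroxisomal oxidation enzyme, was at 347 on the control array and below the floor at day 1, at 108. Its fold at day 1, at least 1.999-fold lower, is thus a lower bound set by the floor. Acot1, a thioesterase, was at least 5.87-fold higher at day 1 and at least 2.34-fold at day 3, and Plin2, a lipid droplet coat protein, 3.05-fold and 1.65-fold; at day 6 their log2 changes were 0.28 and -0.07. Acadl, which begins oxidation of long-chain fatty acids, and Slc25a20, which carries acylcarnitine, were higher on the later days, at 3.11-fold and 2.66-fold at day 3. Pdk4 was past 2-fold on all 3 days, and none of these 4 genes was.

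A list of regulators of Pdk4 and Pcx, which also held glucose transporter genes, was measured too, with 13 of 18 above the floor. The counts here include those transporters, Slc2a4 and Slc2a1. At day 1, 3 were at least 2-fold higher and 4 lower; at day 3, 0 and 1; at day 6, 1 and 0. Ppara stood at 382 on the control array, 574 at day 1, 578 at day 3 and 877 at day 6, which is 2.29-fold higher at day 6. Pparg, the fat cell receptor, was 3.75-fold lower at day 1 and Cebpb, a transcription factor raised by cAMP, 4.28-fold higher. The insulin-responsive glucose transporter Slc2a4 was 6.26-fold lower and the ubiquitous transporter Slc2a1 at least 4.13-fold higher at day 1. Ppargc1a and Ppard were at or below the floor on every array.

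The genes whose 3 log2 changes lay nearest to those of a member were taken from 5094 genes above the floor on all 4 arrays, by Euclidean distance over the 3 treated arrays. Nearest to Pdk4 were Car2, a carbonic anhydrase, at a distance of 0.51, the clock nuclear receptor gene Nr1d2 at 0.52, the mitochondrial Chchd10 at 0.63, the chemokine gene Ccl8 at 0.65 and the metalloproteinase gene Mmp7 at 0.76. Nr1d2 read 326, 1134, 1295 and 1414 along the course, and the sources used here do not say at what hour fat was collected. Nearest to Dlat were Kif22, a kinesin, at 0.08, the mitochondrial peroxiredoxin Prdx3 at 0.13, Etfdh, which passes electrons from fatty acid oxidation to ubiquinone, at 0.20, Wfdc21 at 0.26 and the carnitine palmitoyltransferase Cpt2 at 0.27. Nearest to Pcx were Prss30 at 0.11, the survival gene Bcl2l2 at 0.12, Cenpv and Cd302 at 0.13 each and H2-Ke6 at 0.14. With 3 points per gene that share the control array, likeness is a description only; the nearest gene to Pdk4 lay further away than those nearest to Dlat and Pcx.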

How the data were processed

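RNA from epididymal white fat of 4 groups of mice was measured on 1 Affymetrix array per group, the groups being taken from the sample descriptions. The authors deposited probe set intensities on a linear scale, and 12.2% to 12.4% of them per array were at or below 0; the sources used here name no software or normalization. The medians of the deposited intensity columns were 314 to 314.5, so the arrays had nearly the same median before any step taken here. Each change is relative to that common level. Titles of 2 arrays write the compound number as 316234, and the descriptions, followed here, as 316243.

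With pandas 2.3.3 and numpy 2.4.6, 66 control probe sets were left out, and arrays were brought to one trimmed mean, taken between percentiles 2 and 98. A floor at percentile 40 (174 units) replaced lower values before log2 was taken. Unless stated otherwise, a gene was taken as above the floor when it exceeded it on at least 1 array. A gene was represented by its probe set with the highest mean, named from the array's annotation (10833 probe sets with 1 symbol, 396 with several, 1193 unlisted), and counted when at least 2-fold from control. In the GRCm38.p6 gene table, 10817 probe sets were found by Entrez identifier and 0 symbols changed. Where 1 side was at the floor, the fold is a lower bound, written as at least. The measurement error is taken from the difference between the changes of 2 probe sets of one gene, over 794 to 819 genes per comparison with control. It is the scaled median absolute deviation of that difference, divided by the square root of 2. With the standard deviation in its place, the error was larger, at 0.41, 0.31 and 0.31 at days 1, 3 and 6. Precision is limited by the number of arrays.

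The members, lists and motifs were chosen with earlier results of these data known. Of the 5 subunit genes planned for a median, 4 had a probe set. Genes named beside the members were at most 4 of each list, those furthest past 2-fold, and a set named whatever its values. The 5 genes nearest to each of Pdk4, Pcx and Dlat were also named. Hif1a, Lias, Ppara, Ppard, Ppargc1a, Slc25a1, Ehhadh and the cell markers were named after their values were seen. Of the genes planned to be named, Pdp1, Pdp2 and Mpc2 had no probe set by this rule and were not analysed here. On simulated data with known folds, the median log2 change was checked against the true one at 1.5-fold and 2-fold. The calls themselves were not checked. Alternatives in floor, scaling, probe set rule and fold were tried, as given at the end.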

Additional observations from a re-analysis of the deposited data

Results flagged for a closer look

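Pdk1 was on opposite sides of control at different times by more than the error between probe sets. Its log2 change against control was -0.83 at day 1 and 0.63 at day 3, and 0.42 at day 6. Each time point has 1 array, so the difference between days was not tested.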

How the results depend on the processing

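Over 7 alternative settings the log2 change of each member on each day was recomputed, giving 144 values, of which 142 moved by less than the error between probe sets and 0 called changes reversed. Both that moved further belong to Dlat under the mean of all probe sets of a gene, 0.80 at day 3 and 0.43 at day 6. Many of the 144 values could hardly move, so the count says little about robustness. No member value changed with the floor, and a gene with 1 probe set has the same value under the mean. The scale factors were 0.998 to 1.001, so leaving out the scaling moved little. The subunit medians moved by less than that error in all 21 recomputations. The 2 genes past 2-fold at day 1 became 1 under the mean of all probe sets, where Pcx was within 2-fold, and 1 with probe sets without a shared-sequence suffix, which leave Pcx with none; the 2 genes at day 3 became 1 under the mean of all probe sets. With the call at 1.5-fold, 5 of 7 genes passed at day 1, where 34.3% of all genes did, and 2 at day 6, where 15.8% did. Pdk4 lay between 1.69 and 1.72 at day 1, 1.58 and 1.59 at day 3, and 1.79 and 1.81 at day 6 over these settings. No paired analysis was possible because each group has 1 array. What 1 pooled array per group cannot show is the spread between animals.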
